A study of Homo sapiens with 8 samples.

Results

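The genes described here carry out mitosis: the cyclin-dependent kinase CDK1 with its cyclins and activators, the machinery of chromatid separation, the spindle checkpoint, the Aurora and polo kinases with the chromosomal passenger complex, the kinetochore, the spindle midzone and condensin. A list of 53 gene symbols was taken, and every probe that the platform annotation assigns to a listed symbol was used. Of the 53 genes, 50 had a probe, 67 probes in all, among 15550 genes with a probe on the array. SPC24, SPC25 and ECT2 carry no probe in that annotation and are not analysed here. A gene was tested where a probe stood above the negative control beads (detection p-value under 0.05) on at least 4 of 8 arrays, which 49 listed genes met among 10964 genes. UBE2S, a ubiquitin-conjugating enzyme of the anaphase-promoting complex, was detected on none of the 8 arrays and was not tested.

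A cell enters mitosis when CDC25 phosphatases activate CDK1 bound to cyclin A or cyclin B. The spindle checkpoint then holds back the anaphase-promoting complex and its activator CDC20 until every kinetochore is attached to the spindle, after which securin and cyclin B are destroyed and separase parts the sister chromatids. Most of these genes are transcribed late in the cell cycle and are repressed in cells that have left it, through promoters that often hold a cell cycle homology region (CHR) bound by the DREAM and B-MYB complexes and CCAAT boxes bound by the factor NF-Y.

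Total RNA of A549, an established cell line from a human lung adenocarcinoma, was read on an Illumina HumanRef-8 v3 BeadChip, where each probe gives a fluorescence intensity. Every array was of cells carrying a short hairpin RNA (shGLP) against GLP, the histone methyltransferase encoded by EHMT1, a coregulator of the glucocorticoid receptor. The groups were 4 arrays at 0 h and 4 arrays at 24 h of 100 nM dexamethasone, a synthetic glucocorticoid, with cells held beforehand in charcoal-stripped serum and phenol red-free medium, and they lay on 2 slides, with replicates 1 and 2 on slide 1 and replicates 3 and 4 on slide 2. The set holds no analysed 24 h array of untreated cells, so the time in culture and the hormone cannot be told apart. The design also names NI and shNS cells, which are not analysed here. The labels do not say whether the 0 h cells received a vehicle, whether the hairpin line is a clone, or whether replicates came from separate cultures, so p-values measure the spread between these samples, which may be technical.

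Each array detected 13897 to 14797 of 22011 probes. The leading principal component carried 45.4% of the variance, and the next one carried 22.2%. EHMT1, the hairpin's target, was near background, detected on 1 array at 0 h and all 4 arrays at 24 h, with a difference of 0.36 ± 0.13 (SE, log2) that did not pass the test (limma adjusted p = 0.130). Depletion cannot be checked from it, since all arrays carry the hairpin. EHMT2, its partner methyltransferase, differed by -0.30 ± 0.12 (adjusted p = 0.175), and the receptor gene NR3C1 by -0.06 ± 0.17 (adjusted p = 0.877). Of 10 epithelial and A549 markers with a probe, 9 were detected on every array. The fibroblast markers COL1A2, COL3A1 and PDGFRB, the leukocyte markers PTPRC and CD3E and the endothelial markers VWF and CDH5 were detected on none. In each of these lists 1 marker was detected on all 8 arrays, namely COL1A1, CD14 and PECAM1. The endothelial marker KDR was detected on 3 arrays at 0 h and 4 at 24 h.

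After 24 h of dexamethasone, the RNA of most mitotic genes was lower. Of the 49 tested genes, 41 were called lower and 0 higher (limma, adjusted p under 0.05 over all tested probes), where 5.34% of all 10964 genes were called lower, 4.72% higher and 10.1% in either direction. The estimate was negative for 49 of 49, with a median log2 change of -1.11, against a median of -0.01 over all genes. The estimates ran from -1.57 for CDC25A to -0.16 for CDC25B, and the estimated fall was more than 2-fold for 29 genes, as it was for 2.47% of all genes. All 4 arrays at 24 h read below all 4 at 0 h for 43 genes, where 9.1% of all genes did so. In bulk RNA, fewer cells in mitosis and less RNA per mitotic cell cannot be told apart. Beside this, the summed intensity of the A549 markers was 150400 to 174400 at 0 h and 178100 to 186800 at 24 h, and that of the fibroblast markers 229.2 to 471 and 275.5 to 458.3. The leukocyte markers summed to 455.8 to 612.8 at 0 h and 269.1 to 508.6 at 24 h, and the endothelial markers to 228.3 to 251.5 and 193.3 to 268.8. Single markers moved within these sums. Of the 10 tested A549 markers, CPS1 (1.06), KRT8 (0.92), CDH1 (1.09) and KRT18 (0.69) were called higher at 24 h (log2 changes, adjusted p = 0.00746 to 0.0394) and 0 lower. Of the 2 tested fibroblast markers, DCN was called higher (adjusted p = 0.00119), from no detection at 0 h to detection on 4 arrays at 24 h. DCN met the detection filter only through the 24 h arrays, so its call is not independent of the filter. COL1A1 was called lower (-1.22 ± 0.32, adjusted p = 0.0385), with overlapping times. The tested leukocyte marker CD14 (-0.66, adjusted p = 0.0898) and the endothelial markers KDR and PECAM1 were not called. The part of any of these in the fall of the mitotic genes was not tested.

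**Figure D1:**
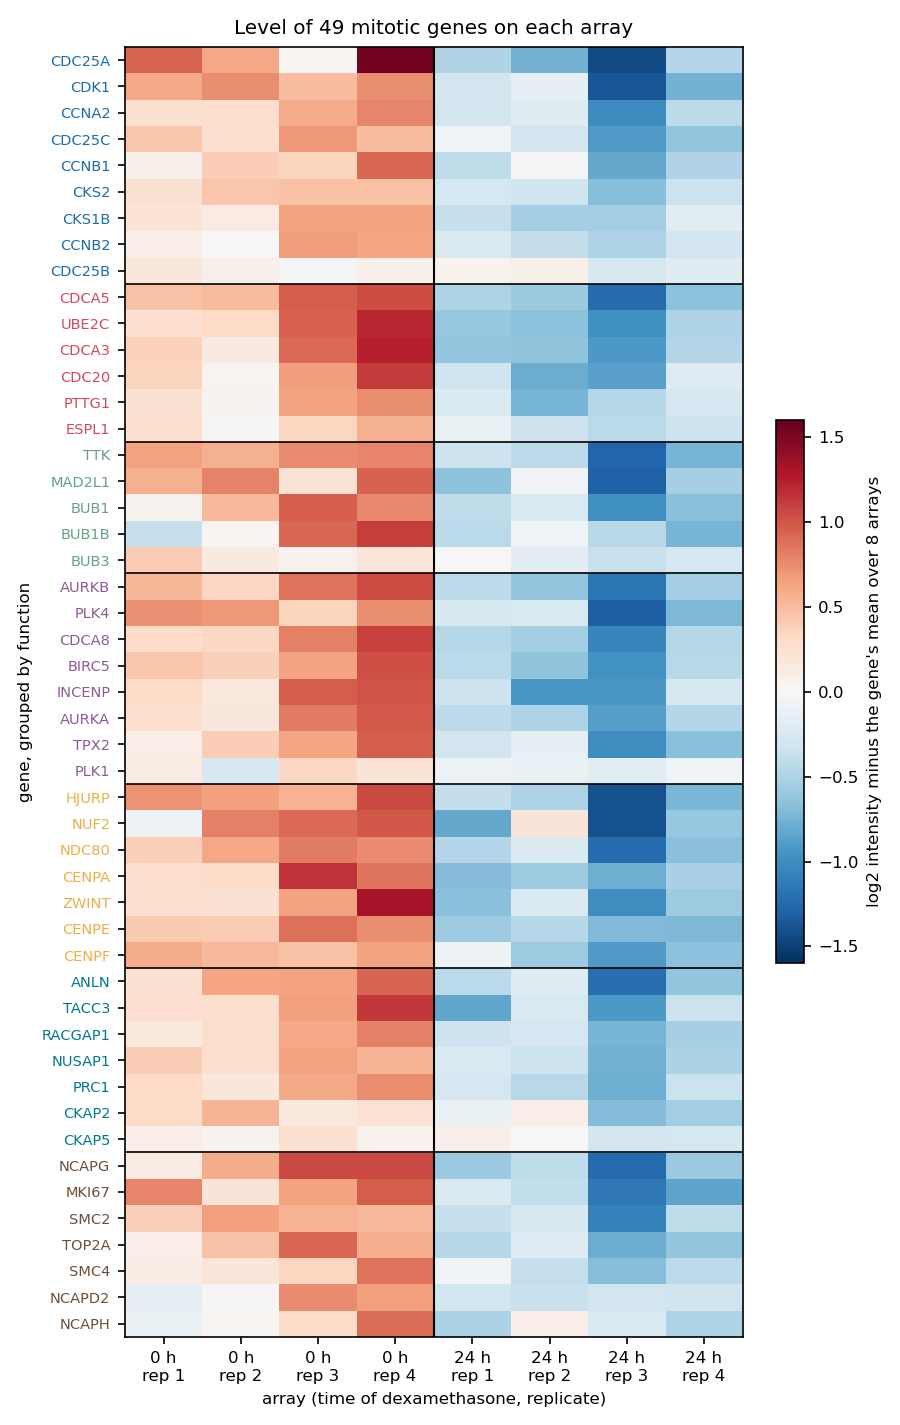
Level of the 49 tested mitotic genes on each array, as log2 intensity minus the gene's mean over 8 arrays (colour), with genes in rows by function and arrays in columns by time and replicate. The 0 h columns are mostly above the gene's mean and the 24 h columns mostly below it, with the widest contrast in replicates 3 and 4.

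The promoters are shown because the tested genes moved in the same direction. RefSeq windows on GRCh38.p14, from 250 bases before to 50 bases after the annotated start, were matched by symbol for 46 of the 53 listed genes, with 61 windows. These include windows of SPC24, SPC25, ECT2 and UBE2S, whose RNA was not tested, and those of SPC25 and ECT2 add to the CHR count below. Searched on both strands, a CHR (TTTGAA or TTCGAA) stood in 39 of these 61 windows (63.93%), where 16.35% of all 35116 windows hold it. A CCAAT box (CCAAT) stood in 67.21% against 34.61%, and both motifs in 47.54% against 6.38%. An E2F motif (TTTGGCGC or TTTCGCGC) stood in 6.56% against 1.15%. A CHR stood in 31 of the 46 windows of genes called lower and in 5 of the 10 windows of tested genes not called. Some genes have several windows, and the 35116 windows come from 27305 genes, tested here or not. Counted by gene, a CHR was held by 35 of 46 listed genes and by 5336 of those 27305. It was held by 28 of 35 genes called lower and by 5 of 7 not called, and that difference was not tested. These are matches of letters and were not tested as binding sites. The windows below belong to the 4 called genes with the smallest p among those that hold a CHR. They are written 5′ to 3′ on the gene's strand, with capitals for a CHR and for a CCAAT box in either orientation. CDCA5 lies on the minus strand at chr11:65083991-65084290, HJURP on the minus strand at chr2:233854486-233854785, CENPF on the plus strand at chr1:214602945-214603244 and CENPA on the plus strand at chr2:26785806-26786105.
CDCA5: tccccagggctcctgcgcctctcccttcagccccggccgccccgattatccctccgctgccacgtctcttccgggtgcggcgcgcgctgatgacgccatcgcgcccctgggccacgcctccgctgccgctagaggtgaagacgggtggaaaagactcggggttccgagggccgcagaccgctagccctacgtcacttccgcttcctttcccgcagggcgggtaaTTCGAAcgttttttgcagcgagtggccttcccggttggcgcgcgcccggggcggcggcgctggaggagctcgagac
HJURP: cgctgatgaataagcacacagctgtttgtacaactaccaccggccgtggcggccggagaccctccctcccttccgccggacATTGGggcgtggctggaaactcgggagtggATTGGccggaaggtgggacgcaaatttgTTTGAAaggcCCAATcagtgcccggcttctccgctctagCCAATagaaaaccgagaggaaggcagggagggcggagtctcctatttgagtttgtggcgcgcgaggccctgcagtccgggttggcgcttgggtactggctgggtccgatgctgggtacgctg
CENPF: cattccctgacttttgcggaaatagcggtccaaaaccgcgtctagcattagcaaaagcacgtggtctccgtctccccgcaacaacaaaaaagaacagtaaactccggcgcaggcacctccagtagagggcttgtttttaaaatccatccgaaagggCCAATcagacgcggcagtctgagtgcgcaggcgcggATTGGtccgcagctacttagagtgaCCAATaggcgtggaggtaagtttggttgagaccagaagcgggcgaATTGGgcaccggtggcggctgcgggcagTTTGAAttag
CENPA: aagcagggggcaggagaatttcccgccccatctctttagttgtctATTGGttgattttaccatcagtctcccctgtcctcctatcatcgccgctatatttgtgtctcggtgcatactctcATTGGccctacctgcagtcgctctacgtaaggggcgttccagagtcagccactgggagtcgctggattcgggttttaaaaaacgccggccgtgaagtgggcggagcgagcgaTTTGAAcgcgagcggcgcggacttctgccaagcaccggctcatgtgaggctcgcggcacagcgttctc
Counted from the start, with negative positions before it, the CHR begins at position -26 in CDCA5, -111 in HJURP, -18 in CENPA and 41 in CENPF. Of these windows, HJURP and CENPF hold 4 CCAAT boxes each, CENPA 2 and CDCA5 0.

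Among CDK1, its cyclins and their regulators, 8 of 9 genes fell, with a median log2 change of -0.87 over the group. CKS2, a small subunit that binds CDK1, read, in the order of replicates 1 to 4, log2 13.76, 13.96, 13.98 and 13.98 at 0 h and 13.22, 13.18, 12.82 and 13.16 at 24 h. The times did not overlap, and the fall was 1.76-fold (-0.82 ± 0.13, SE, limma adjusted p = 0.00361). CDK1, the kinase that drives mitosis, read 12.20, 12.33, 12.08 and 12.32 at 0 h and 11.29, 11.42, 10.21 and 10.82 at 24 h. Its 24 h arrays were spread more widely than its 0 h arrays and still lay below all of them, a 2.45-fold fall (-1.30 ± 0.24, adjusted p = 0.00674). The related subunit CKS1B fell (log2 change -0.82), as did cyclin A2 (CCNA2, -0.96). Cyclins B1 and B2 (CCNB1 and CCNB2) fell as well, with changes of -0.87 and -0.71 and adjusted p = 0.0265 and 0.0278. Both calls depended on single arrays. CCNB1 missed the threshold without any 1 of 0 h replicates 2, 3 and 4 or 24 h replicates 1, 3 and 4 (adjusted p = 0.0522 to 0.0799), and CCNB2 without any 1 of 0 h replicates 3 and 4 or the 4 arrays at 24 h (0.0532 to 0.0866).

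The CDC25 phosphatases, which remove the inhibitory phosphates from CDK1, differed in call. The differences between their changes were not tested. CDC25A fell 2.96-fold, the largest estimated fall of the 49 genes (-1.57 ± 0.32, adjusted p = 0.0106), and CDC25C fell 1.92-fold (-0.94 ± 0.19, adjusted p = 0.0107). CDC25B read log2 13.36, 13.26, 13.16 and 13.25 at 0 h and 13.23, 13.26, 12.92 and 12.98 at 24 h. These groups overlapped, and the difference of -0.16 ± 0.13 did not pass (adjusted p = 0.538). The 2 other probes of CDC25C were also called lower (-1.34 and -1.31). A dimmer probe of CDC25A was detected on all 4 arrays at 0 h and on none at 24 h, so that it gives only a bound for the later time.

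For chromatid separation, 6 of 6 tested genes fell, with a median of -1.21. CDCA5 (sororin), which keeps cohesin on replicated chromosomes and whose promoter is shown above, read log2 12.34, 12.37, 12.83 and 12.92 at 0 h and 11.37, 11.27, 10.63 and 11.22 at 24 h. Every 24 h array lay below every 0 h array, a 2.81-fold fall (-1.49 ± 0.20, adjusted p = 0.00127). UBE2C, the ubiquitin-conjugating enzyme that starts chains on targets of the anaphase-promoting complex, read 12.57, 12.61, 13.23 and 13.51 at 0 h and 11.69, 11.64, 11.32 and 11.80 at 24 h. Again the groups did not overlap, and the fall was 2.58-fold (-1.37 ± 0.22, adjusted p = 0.00324). CDCA3, a trigger of mitotic entry and a target of the complex, fell by 1.33. CDC20, the activator of the complex, fell (-1.09, adjusted p = 0.0166), and so did PTTG1 (securin), the inhibitor of separase (-0.84, adjusted p = 0.0169). ESPL1 (separase), the protease that cuts cohesin, fell by 0.61 (adjusted p = 0.0264), the smallest fall among called members. Without 24 h replicate 3, 3 of the 6 genes remained called. ESPL1 missed the threshold without any 1 of 0 h replicates 3 and 4 or 24 h replicates 2, 3 and 4 (adjusted p = 0.0557 to 0.0851), CDC20 without 24 h replicate 2 or 3 (0.0520 to 0.0548), and PTTG1 without 24 h replicate 3 (0.0502).

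Of the spindle checkpoint, 3 of 5 genes fell, with a median of -1.15. TTK (MPS1), the kinase at the head of the checkpoint, read log2 11.06, 10.98, 11.17 and 11.19 at 0 h and 10.09, 10, 9.15 and 9.68 at 24 h. The 0 h arrays spread little (SD 0.10) and all lay above the 24 h arrays, a 2.59-fold fall (-1.37 ± 0.20, adjusted p = 0.00181). BUB1, a kinase that recruits checkpoint proteins to kinetochores, read 10.59, 11.05, 11.48 and 11.30 at 0 h and 10.12, 10.29, 9.55 and 9.86 at 24 h. It fell 2.22-fold with no overlap (-1.15 ± 0.22, adjusted p = 0.00809), and MAD2L1 (MAD2), which binds CDC20, fell 2.41-fold (-1.27 ± 0.25, adjusted p = 0.0101).

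The remaining checkpoint genes did not pass. BUB1B (BUBR1), the subunit of the mitotic checkpoint complex that binds the anaphase-promoting complex, read log2 6.95, 7.36, 8.24 and 8.44 at 0 h and 6.89, 7.25, 6.88 and 6.58 at 24 h. Its changes were -0.06 and -0.11 in replicates 1 and 2 (slide 1) and -1.36 and -1.85 in replicates 3 and 4 (slide 2), and the fitted difference was -0.85 ± 0.31 (adjusted p = 0.125). Without 0 h replicate 1 its adjusted p was 0.0281, and over 21 alternatives it ran from 0.0281 to 0.878. BUB3, the partner of BUB1 and BUB1B, read 14.37, 14.11, 14.03 and 14.16 at 0 h and 13.97, 13.79, 13.61 and 13.68 at 24 h. Its times did not overlap, the difference was -0.40 ± 0.13 (adjusted p = 0.0928), and with the replicate number as a block it passed (adjusted p = 0.0291, and 0.0230 to 0.342 over 21 alternatives). Its 2 dimmer probes differed by -0.64 and -0.20 and did not pass (adjusted p = 0.100 and 0.732).

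Among the Aurora and polo kinases and the passenger complex, 7 of 8 genes fell, with a median of -1.24. BIRC5 (survivin), which brings the passenger complex to the centromere, read log2 11.83, 11.77, 12.03 and 12.42 at 0 h and 10.96, 10.74, 10.42 and 10.94 at 24 h. The fall was 2.38-fold with no overlap (-1.25 ± 0.18, adjusted p = 0.00192), and its other probe fell 2.83-fold (adjusted p = 0.000893). AURKB, the kinase of that complex, read 12.03, 11.84, 12.36 and 12.54 at 0 h and 11.08, 10.86, 10.34 and 10.94 at 24 h. Its arrays did not overlap either, and it fell 2.62-fold (-1.39 ± 0.20, adjusted p = 0.00201). The complex's scaffold INCENP (-1.23) and its subunit borealin (CDCA8, -1.26) fell too, so that all 4 of its genes were called lower. AURKA, the kinase of spindle poles (-1.13), and its activator TPX2 (-1.05) also fell.

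The polo-like kinases differed in call. PLK4, which starts centriole duplication, fell 2.41-fold (-1.27 ± 0.23, adjusted p = 0.00621). PLK1, which acts from mitotic entry to cytokinesis, read log2 9.55, 9.16, 9.75 and 9.63 at 0 h and 9.32, 9.31, 9.24 and 9.34 at 24 h. Its 0 h replicate 2 lay below all 4 arrays at 24 h, and the difference was -0.22 ± 0.15 (adjusted p = 0.429). PLK1 was measured by 1 probe. The difference between the changes of PLK1 and PLK4 was not tested.

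At the kinetochore and centromere, 7 of 7 tested genes fell, with a median of -1.29. CENPE, a kinesin that moves chromosomes along the spindle, had the smallest adjusted p of the 49 genes. It read log2 8.82, 8.81, 9.29 and 9.14 at 0 h and 7.82, 7.94, 7.70 and 7.68 at 24 h, a 2.35-fold fall with no overlap (-1.23 ± 0.15, adjusted p = 0.000648). HJURP, the chaperone that deposits the centromeric histone CENPA, read 11.63, 11.56, 11.46 and 11.96 at 0 h and 10.53, 10.42, 9.51 and 10.18 at 24 h. It fell 2.82-fold (-1.49 ± 0.22, adjusted p = 0.00205), and every 24 h array was below every 0 h array. CENPA itself fell 2.44-fold (-1.29 ± 0.20, adjusted p = 0.00292) and its other probe 2.17-fold. CENPF, a large outer kinetochore protein, fell 2.16-fold (-1.11 ± 0.17, adjusted p = 0.00272). The promoters of HJURP, CENPA and CENPF are among those shown above. NDC80, the subunit of the kinetochore that grips microtubules (-1.29), and ZWINT, which links checkpoint proteins to the kinetochore (-1.24), fell as well.

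NUF2, the partner of NDC80, was the called gene with overlapping times. Its brightest probe read log2 7.75, 8.64, 8.74 and 8.83 at 0 h and 7.02, 8.04, 6.44 and 7.23 at 24 h, with 24 h replicate 2 above 0 h replicate 1. The fall was 2.48-fold (-1.31 ± 0.33, adjusted p = 0.0334). A dimmer probe read 7.04, 6.89, 6.93 and 7.72 at 0 h and 6.25, 6.61, 5.38 and 6.54 at 24 h, with a difference of -0.95 ± 0.28 that did not pass (adjusted p = 0.0636). A further probe was not tested, being detected on 1 of the 8 arrays. NUF2 missed the threshold without any 1 of 0 h replicates 2, 3 and 4 or 24 h replicates 1, 3 and 4 (adjusted p = 0.0685 to 0.0866).

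For the midzone, cytokinesis and spindle microtubules, 5 of 7 tested genes fell, with a median of -0.93. NUSAP1, which bundles spindle microtubules near chromosomes, read log2 12.28, 12.17, 12.54 and 12.43 at 0 h and 11.65, 11.55, 11.12 and 11.38 at 24 h. The times did not overlap, and the fall was 1.90-fold (-0.93 ± 0.15, adjusted p = 0.00344). ANLN (anillin), a scaffold of the contractile ring, read 10.18, 10.56, 10.57 and 10.86 at 0 h and 9.51, 9.74, 8.73 and 9.30 at 24 h. It fell 2.34-fold, also with no overlap (-1.23 ± 0.22, adjusted p = 0.00646). Falls were also called for PRC1, which crosslinks midzone microtubules (-0.92), RACGAP1 of centralspindlin (-0.93) and TACC3, which strengthens spindle fibres (-1.17).

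The microtubule genes that did not pass were CKAP2 and CKAP5. CKAP2, a spindle-associated protein, read log2 9.96, 10.21, 9.81 and 9.89 at 0 h and 9.55, 9.77, 8.97 and 9.10 at 24 h. Its times did not overlap, the difference was -0.62 ± 0.19 (adjusted p = 0.0704), and with the replicate block it passed (adjusted p = 0.0154), as it did without 24 h replicate 2 (0.0318). Over 21 alternatives its adjusted p ran from 0.0139 to 0.276. CKAP5 (ch-TOG), a microtubule polymerase and the partner of TACC3, read 13.23, 13.19, 13.39 and 13.21 at 0 h and 13.21, 13.14, 12.84 and 12.85 at 24 h. The groups overlapped, and the difference was -0.25 ± 0.13 (adjusted p = 0.325) and -0.28 for its other probe.

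Of condensin and other chromosome proteins, 5 of 7 genes fell, with a median of -1.04. NCAPG, a subunit of condensin I, read log2 10.75, 11.21, 11.66 and 11.67 at 0 h and 10.01, 10.21, 9.36 and 10.01 at 24 h. It fell 2.68-fold with no overlap (-1.42 ± 0.24, adjusted p = 0.00444). MKI67 (Ki-67), which coats mitotic chromosomes and marks cycling cells, fell 2.47-fold (-1.31 ± 0.23, adjusted p = 0.00501). TOP2A, the topoisomerase that untangles sister chromatids, fell 2.06-fold (-1.04 ± 0.19, adjusted p = 0.00681).

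The condensin I subunits NCAPD2 and NCAPH did not pass. NCAPD2 read log2 10.58, 10.77, 11.50 and 11.39 at 0 h and 10.44, 10.39, 10.44 and 10.42 at 24 h. The 24 h arrays were nearly level (SD 0.02) and below all 0 h arrays, which spread by slide, and the difference was -0.64 ± 0.20 (adjusted p = 0.0821, and 0.0257 without 0 h replicate 1). Over 21 alternatives that p ran from 0.0257 to 0.438. NCAPH read 5.39, 5.54, 5.79 and 6.39 at 0 h and 4.99, 5.61, 5.26 and 5.01 at 24 h. The gene stood near background, detected on 3 arrays at 0 h and 1 array at 24 h, and the difference was -0.56 ± 0.23 (adjusted p = 0.169).

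The condensin ATPases SMC2 and SMC4 were each read by a pair of probes that differed in call. For SMC2, the brighter probe read log2 9.29, 9.56, 9.47 and 9.43 at 0 h and 8.55, 8.65, 7.83 and 8.51 at 24 h, a 2.08-fold fall with no overlap (-1.05 ± 0.18, adjusted p = 0.00477). Its dimmer probe read 5.71, 5.65, 5.50 and 6.30 at 0 h and 6.17, 6.13, 5.81 and 6.01 at 24 h. That was the 1 positive estimate among the 64 tested probes, 0.24 ± 0.18, and it did not pass (adjusted p = 0.514). With the mean of both probes, SMC2 missed the threshold (adjusted p = 0.151, the highest of 21 alternatives). For SMC4, the brighter probe read 7.04, 7.11, 7.25 and 7.78 at 0 h and 6.86, 6.55, 6.24 and 6.50 at 24 h, a fall of 0.76 ± 0.19 (adjusted p = 0.0332). Its other probe read 7.05, 6.99, 7.06 and 6.75 at 0 h and 6.63, 6.56, 5.70 and 6.56 at 24 h, with a difference of -0.60 ± 0.21 (adjusted p = 0.105). Neither probe's times overlapped. SMC4 missed the threshold without any 1 of 0 h replicates 3 and 4 or 24 h replicates 2, 3 and 4 (adjusted p = 0.0552 to 0.102).

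Over all 64 tested probes of these genes, 50 were called lower and 0 higher. The 50 include the dimmer CDC25A probe, which met the detection filter only through the 0 h arrays, so its call is not independent of the filter. Of the 13 genes with several tested probes, NUF2, SMC2 and SMC4 held both called and uncalled probes, and the remaining 36 tested genes had 1. The plot of changes gives every gene with its numbered pairs.

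**Figure D2:**
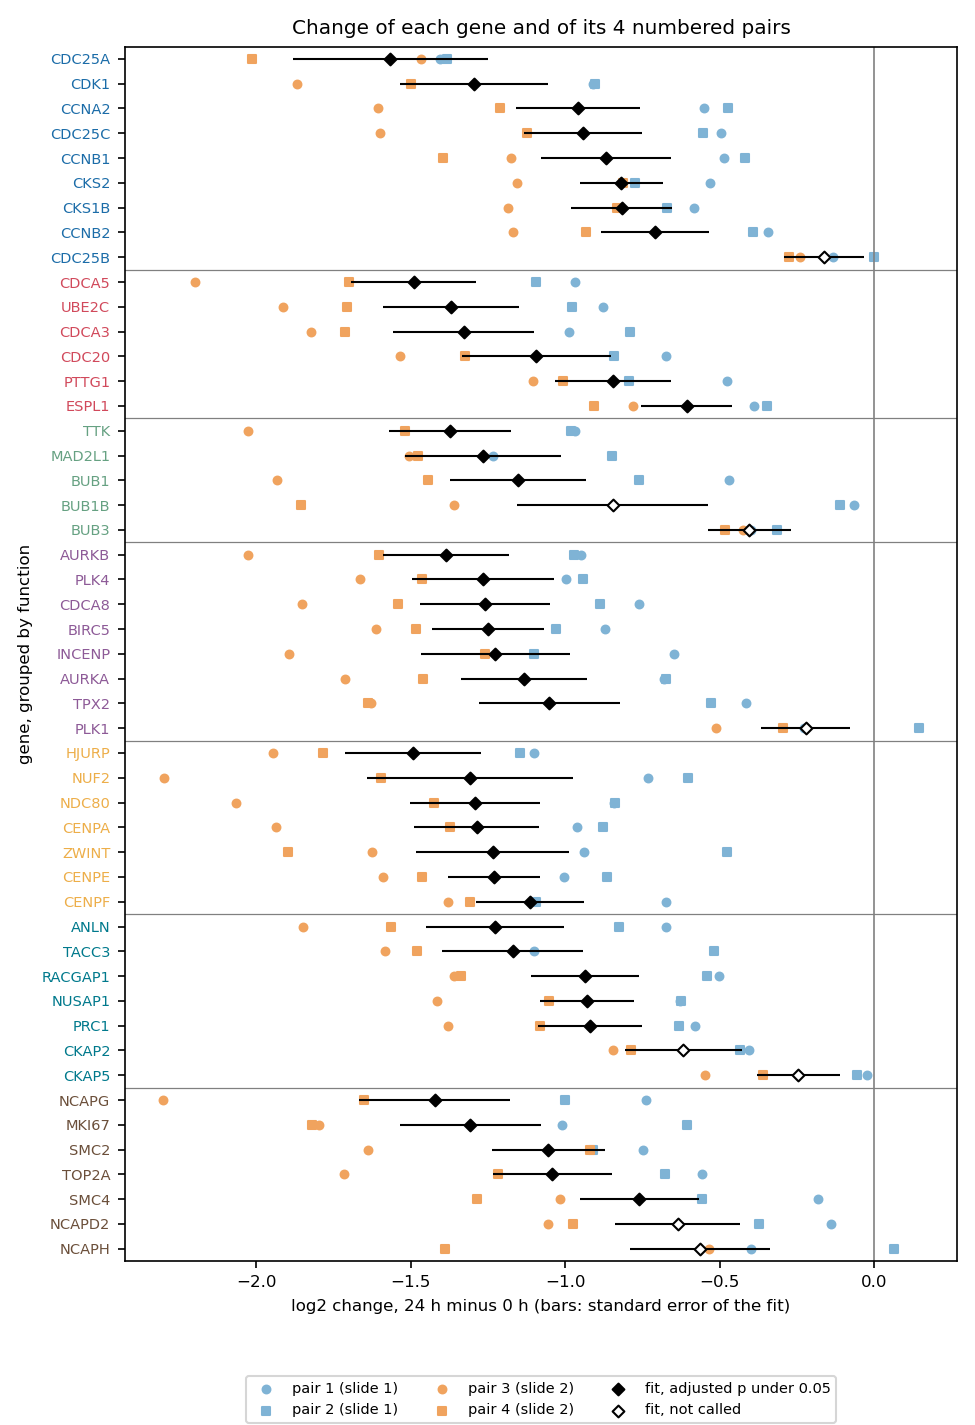
Log2 change, 24 h minus 0 h, of the 49 tested genes by function: diamonds give the fitted change with its standard error (filled where called), and coloured points the difference within each pair of arrays of the same replicate number. All fitted changes lie below 0, and pairs 3 and 4 (slide 2) lie mostly to the left of pairs 1 and 2 (slide 1).

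The fall was present in every numbered pair and was larger on slide 2. The median change of the 49 genes was -0.67, -0.68, -1.60 and -1.40 in pairs 1 to 4, and 46 genes were lower in all 4 pairs, as 21.7% of all genes were. The exceptions were CDC25B, PLK1 and NCAPH, each with 1 pair at or above 0. The mean level of the 49 genes was, for replicates 1 to 4 in order, log2 10.71, 10.74, 11.03 and 11.22 at 0 h and 10.05, 10.07, 9.54 and 9.92 at 24 h. Slide 2 thus read higher than slide 1 at 0 h and lower at 24 h.

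Within slides, the median change was -0.68 on slide 1 and -1.53 on slide 2, and the estimate was more negative on slide 2 for 49 of 49 genes, as it was for 48.3% of all genes. With 2 arrays at each time, 13 genes were called lower on slide 1 alone, where 2.33% of all genes were, and 31 on slide 2 alone, where 1.71% were. With slide as a block, 44 of the 49 genes were called lower, where 7.14% of all genes were (783 lower, and 720 higher). The difference between slides passed the limma interaction test for 0 of the 49 genes and for 0 of all 10964 genes. At an unadjusted p under 0.05 it was met by 28 of the 49 genes and by 7.72% of all genes. It was widest for BUB1B, at -1.52 (slide 2 minus slide 1, unadjusted p = 0.00106, adjusted p = 0.488), and smallest for BUB3, at -0.10. The labels give no other difference between the replicates of the slides, and culture and hybridisation cannot be told apart.

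**Figure D3:**
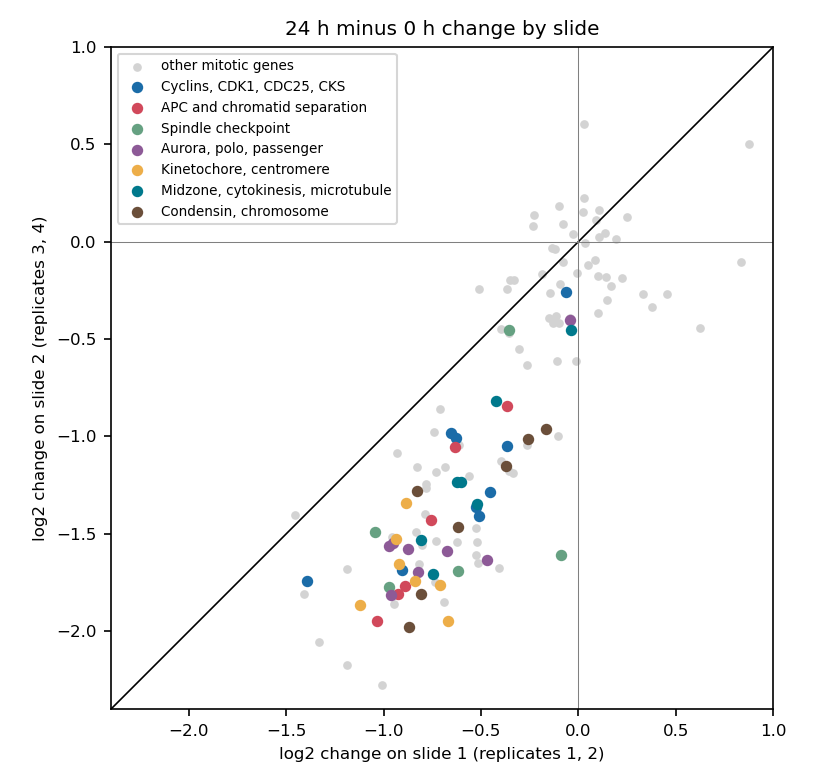
Log2 change on slide 2 against that on slide 1 for the 49 genes (coloured by function) and for 88 other mitotic genes (grey), with the line of equal change. All 49 genes lie below that line.

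With the replicate number as a block, 43 of the 49 genes were called lower, the added genes being BUB3 and CKAP2, where 8.98% of all genes were. Over all genes the block raised the calls from 585 to 985 lower and from 518 to 876 higher.

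A further 108 genes of mitosis, in 5 lists, were set beside these; 95 had a probe and 88 were tested. Of them, 35 were called lower and 0 higher, with a median change of -0.31, where 5.34% of all genes were called lower and 4.72% higher. The share called therefore lay between that of the 49 genes and that of all genes. The lists differed in count, which was not tested.

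Among other kinetochore and centromere genes, 14 of 22 fell, with a median of -0.87. SGO1 (shugoshin), which protects centromeric cohesin, read log2 9.86, 9.76, 9.57 and 10.11 at 0 h and 8.48, 8.48, 7.38 and 8.19 at 24 h. It fell by 1.69 ± 0.24 with no overlap (adjusted p = 0.00165). SPDL1 (Spindly), which brings dynein to kinetochores, read 11.68, 11.83, 12.07 and 12.08 at 0 h and 10.996, 11.03, 11.11 and 11.09 at 24 h, and fell by 0.86 (adjusted p = 0.00243). OIP5 of the MIS18 complex, which marks centromeres for CENPA, read 11.98, 11.95, 12.25 and 12.26 at 0 h and 11.12, 11.24, 10.56 and 11.16 at 24 h, and fell by 1.09 (adjusted p = 0.00283). None of these overlapped between the times.

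Of other mitotic kinases, phosphatases and their regulators, 8 of 16 fell, with a median of -0.54. MASTL (Greatwall), which restrains the phosphatase that opposes CDK1, read log2 8.96, 8.93, 8.69 and 9.47 at 0 h and 7.54, 7.53, 7.16 and 7.38 at 24 h. It fell by 1.61 ± 0.18 (adjusted p = 0.000393). HASPIN, a histone kinase that places the passenger complex at centromeres, read 8.59, 8.54, 8.92 and 9.32 at 0 h and 7.42, 7.33, 6.79 and 7.11 at 24 h, and fell by 1.68 ± 0.20 (adjusted p = 0.000712). The arrays of both kinases did not overlap between the times. MELK, a kinase expressed in dividing cells, read 12.85, 12.71, 12.95 and 13.001 at 0 h and 11.95, 11.72, 11.16 and 11.72 at 24 h, and fell by 1.24 (adjusted p = 0.00157).

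Of other spindle and cytokinesis genes, 9 of 18 fell, with a median of -0.61. ASPM, a protein of spindle poles, read log2 11.89, 11.93, 12.02 and 11.91 at 0 h and 11.10, 11.06, 10.67 and 10.95 at 24 h, and fell by 0.99 ± 0.13 (adjusted p = 0.00114). CKAP2L, a relative of CKAP2, read 10.63, 10.59, 10.90 and 11.15 at 0 h and 9.72, 9.13, 9.09 and 9.59 at 24 h, and fell by 1.43 ± 0.19 (adjusted p = 0.00115). FAM83D, a spindle protein, read 11.61, 11.72, 12.005 and 12.08 at 0 h and 11.001, 10.86, 10.33 and 10.68 at 24 h, and fell by 1.14 (adjusted p = 0.00261). All of their 24 h arrays were below their 0 h arrays.

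Among other condensin and cohesin genes, 3 of 14 fell, with a median of -0.27. NCAPD3, a subunit of condensin II, read log2 9.38, 9.18, 8.98 and 9.33 at 0 h and 8.44, 8.25, 7.91 and 8.23 at 24 h, and fell by 1.01 ± 0.15 with no overlap (adjusted p = 0.00225). ESCO2, which acetylates cohesin in S phase, read 6.28, 7.15, 6.99 and 7.15 at 0 h and 5.76, 6.29, 5.01 and 5.42 at 24 h, where it was detected on 2 of 4 arrays, and fell by 1.27 ± 0.28 (adjusted p = 0.0170). NCAPG2, also of condensin II, read 9.48, 9.07, 9.64 and 10.08 at 0 h and 8.63, 8.87, 7.93 and 8.57 at 24 h, and fell by 1.07 ± 0.24 (adjusted p = 0.0199). The times overlapped for ESCO2 by a narrow margin, and NCAPG2 missed the threshold without 0 h replicate 3 or without 24 h replicate 3 (adjusted p = 0.0503 to 0.0529).

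The other subunits and regulators of the anaphase-promoting complex had a median of -0.09. Of them, 1 of 18 fell, a share near the 5.34% of all genes called lower. That gene was TRIP13, the ATPase that remodels MAD2, which read log2 11.47, 11.57, 11.60 and 12.30 at 0 h and 10.70, 10.73, 10.11 and 10.67 at 24 h. Its times did not overlap, and it fell by 1.18 ± 0.21 (adjusted p = 0.00595).

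**Figure D4:**
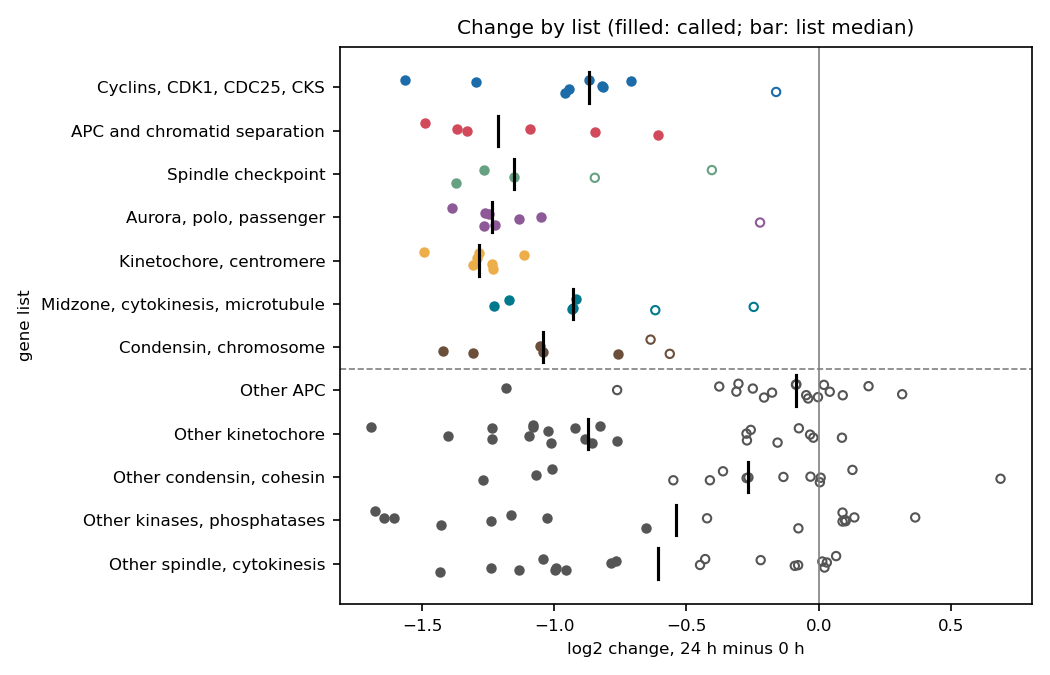
Log2 change, 24 h minus 0 h, of each gene (points, filled where called) in the 7 function groups and, below the dashed line, in the 5 lists of other mitotic genes, with a bar at each list's median. The medians of the 7 groups lie between -1.29 and -0.87, and those of the 5 lists between -0.87 and -0.09.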

How the data were processed

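Total RNA of 8 A549 shGLP samples was read on Illumina HumanRef-8 v3 arrays, with 4 samples at either time (0 h or 24 h with 100 nM dexamethasone), grouped by the labels. Per the file headers, the deposited unprocessed table gives each probe's mean bead intensity, on a linear scale whose lowest values show no sign of background subtraction. It also gives, per the file headers, a detection p-value against the negative control beads. The authors' normalized table holds log2 values of 22011 of those 25204 rows; limma is named in the submitters' processing notes. The sources used here do not give the software that summarised the beads or the authors' background step. The authors' normalized values and those computed here are both matched to ranks within an array. The authors' log2 values correlated with those computed here at r = 0.9976 on each array, which that matching fixes in part.

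Intensities were background-corrected with nec in limma 3.58.1 (R 4.3.3, offset 16, background from the detection p-values). The added offset lessens the changes of dim probes. The values were then put on the log2 scale after quantile normalization over the 22011 probes. Of these, 14533 probes with a detection p-value under 0.05 on at least 4 of 8 arrays were tested with lmFit and eBayes, two-sided, with Benjamini-Hochberg adjustment over them and a threshold of 0.05. A gene is its brightest tested probe. Levels are normalized log2 intensities and are not compared between probes, changes are log2 differences with the fit's standard error, and folds are their antilogs. The number of arrays limits the precision. The interaction fit used time, slide and their product. No 2 arrays were identical.

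The replicate numbers come from the labels. Same-numbered arrays' deviations from their group means correlated at r = 0.463, 0.454, 0.367 and 0.454. Those of differently numbered arrays correlated at r = -0.53 to 0.19, so the numbers were taken to pair the samples. The labels state no pairing, so the fit without the block is reported unless the block is named. The block is given as an alternative. The members, function groups, other mitotic lists and markers were chosen with earlier results of these data known. Values on every array are given for the 2 members of each group with the smallest p, every member not called, members whose probes differ in call, and up to 3 called genes of each other list. Symbols come from the platform annotation, updated or kept through Entrez identifiers in RefSeq's GRCh38.p14 gene table for 19741 of 19759 named probes. Promoter windows come from RefSeq. Protein sequences are not used here. Alternatives were other background, normalization, filter, probe and variance settings, the authors' values, replicate and slide blocks, each slide alone, and each array left out. The fit was checked on simulated data.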

Additional observations from a re-analysis of the deposited data

Results flagged for a closer look

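Of 160 groups of 4 arrays checked, over the tested members, the named other genes and the tested markers, 9 held an array set apart from the other 3 by more than Dixon's 95% critical share of the group's range, where chance gives about 1 group in 20. CKS2 was low in 0 h replicate 1, at log2 13.7554 (next 13.9557), and in 24 h replicate 3, at 12.8203 (next 13.1637). PLK4 was low in 0 h replicate 3, at 10.2493 (next 10.5933). TRIP13 was high in 0 h replicate 4, at 12.2991 (next 11.6013), and low in 24 h replicate 3, at 10.106 (next 10.6746). With these arrays included, the times did not overlap for CKS2, PLK4 and TRIP13. Of the markers, CDH1, an epithelial cadherin, was high in 0 h replicate 3, at 10.5862 (next 9.9466), and in 24 h replicate 4, at 11.8326 (next 11.0127). The fibroblast genes DCN and COL1A1 were high in 0 h replicate 3, at 5.303 (next 5.0071), and in 24 h replicate 3, at 6.7357 (next 6.3022).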

How the results depend on the processing

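Between 40 and 44 of the 49 genes were called lower and 0 higher under 11 other settings, with a median change of -1.15 to -0.93 and no change of sign in the calls. NUF2 was lost with no detection filter and SMC2 with the mean of a gene's probes. BUB3 was added with an intensity trend, BUB3 and CKAP2 with no background correction, and BUB3, CKAP2 and NCAPD2 with slide as a block. With the replicate block the count was 43 (BUB3 and CKAP2 added), calls over all genes were 985 lower and 876 higher, and it changed no other call of the 49 genes. HDAC8 became the 1 other mitotic gene called higher, with the replicate block and with slide as a block. Leaving out 1 array gave 34 to 43 genes lower, a median of -1.19 to -0.996, 3 to 6 separation genes, 28 to 35 other mitotic genes, and 406 to 539 lower and 354 to 490 higher over all genes, with 4 against 3 arrays.

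On slide 1 alone, 13 of the 49 genes passed: 2 of CDK1, cyclins and regulators, 3 of separation, 1 of the checkpoint, 4 of Aurora, polo and passenger, 3 of the kinetochore, 0 of the midzone group and 0 of the condensin group, with 10 other mitotic genes and 255 lower and 239 higher of all genes. On slide 2 alone, 31 of the 49 genes passed. By group these were 3 of CDK1, cyclins and regulators, 4 of separation, 3 of the checkpoint and 6 of Aurora, polo and passenger. The rest were 7 of the kinetochore, 4 of the midzone group and 4 of the condensin group. Beside them, 23 other mitotic genes passed on slide 2, with 187 lower and 215 higher of all genes. Each slide holds 2 arrays at each time, so these tests have fewer arrays. Genes near background, such as NCAPH and UBE2S, could not be resolved.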
